A study of Mus musculus with 6 samples.

Results

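TH2B is a testis-specific variant of histone H2B that takes the place of much of the somatic H2B as germ cells enter meiosis. It stays in chromatin through the round spermatid stage, before the histones are exchanged for transition proteins and protamines and the nucleus condenses. Spermatocytes are the meiotic cells and round spermatids are the haploid cells that leave meiosis, so a comparison of both asks where TH2B lies on the genome before and after the meiotic divisions.

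The islands described here are stretches of chromosomes 1 to 19 enriched for TH2B in spermatocytes or in round spermatids of adult Th2b+/tag mice. An island is a broad region built from neighbouring windows of 200 bp in which ChIP reads exceed control reads. There were 14956 autosomal islands in spermatocytes and 16447 in round spermatids, together 31403 of the 46507 islands of the whole series. Each was classed as shared, if it had at least 1 bp in common with an island of the other list, or as belonging to 1 list only.

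In these mice 1 copy of the TH2B gene carries a C-terminal His, Flag and HA tag and the other copy is untagged, and ChIP was done with an anti-HA antibody in both cell types. Spermatocytes and round spermatids were separated on a BSA gradient, and each cell type had 1 ChIP library and 1 input library of the same genotype. The protocol text can also be read as pooling the 2 cell types, and the cell type labels were followed here. The third list, of anti-TH2B ChIP in total germ cells of adult wild-type mice, with 13368 autosomal islands, served as a reference. An island list holds no markers of cell type, so the purity of the fractions was not tested. HA ChIP of untagged cells was not used here.

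With 1 library a side, no difference below could be set against a spread between mice or preparations, and none was tested. Intervals of shares are 95% intervals of counting error only. Those of ratios of medians divide opposite ends of the 95% intervals of each median over islands, so their own level is not 95%. The autosomal islands held 2000483 ChIP reads and 1579106 control reads in spermatocytes, and 2510450 and 1889588 in round spermatids. The median island held 103 ChIP reads beside 79 control reads in spermatocytes and 116 beside 83 in round spermatids. Library totals were not used here. A deeper library can yield more islands, and a place outside a list can still hold TH2B at a level that the caller did not pass.

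Most islands of either stage had no counterpart at the other. In spermatocytes 2476 of 14956 islands were shared (16.6%, exact interval 15.96 to 17.2) and 12480 were of that list only. In round spermatids 2480 of 16447 islands were shared (15.1%, 14.5 to 15.6) and 13967 were of that list only. Nearly every shared island met a single partner. Of the shared islands, 43 in spermatocytes and 39 in round spermatids overlapped 2 islands of the other list, and none overlapped more. At the edge of the rule, 76 of the 2519 overlapping pairs had only 1 window of 200 bp in common, and 22 islands of each list touched an island of the other without overlapping it.

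Islands of one stage covered the islands of the other more densely than they covered the autosomes or the surrounding windows. Spermatocyte islands covered 56.9 Mb, which was 2.30% of the autosomes, and round spermatid islands covered 60.0 Mb, or 2.43%. The 2 sets had 6.15 Mb in common, 10.8% of the spermatocyte bases and 10.3% of the round spermatid bases. Round spermatid islands covered 3.74% of the 1 Mb windows in which spermatocyte islands lay, weighted by the spermatocyte bases in each. The share in common was therefore 4.46 times the level of all autosomes and 2.89 times that of the same windows. By the same measure wild-type islands held 2.33% of spermatocyte bases and 2.73% of round spermatid bases, 1.85 and 1.97 times their level in the same windows.

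Coverage by the other stage was highest at the island itself and had a short-range and a long-range part. At the midpoints of spermatocyte islands 11.6% of positions lay in a round spermatid island. At 2 kb to either side the value was 7.51%, at 4 kb 5.01% and at 10 kb 4.40%. Beyond that it changed slowly, with 4.29% at 50 kb, 3.97% at 200 kb and 2.97% at 2000 kb, still above the 2.43% of all autosomes. Around round spermatid islands the coverage by spermatocyte islands was 10.9% at the midpoint, 4.23% at 10 kb and 2.80% at 2000 kb. Wild-type islands had only the short-range part. They covered 2.46% of spermatocyte midpoints, 1.32% at 4 kb and 1.33% at 2000 kb, beside 1.49% of the autosomes.

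**Figure D1:**
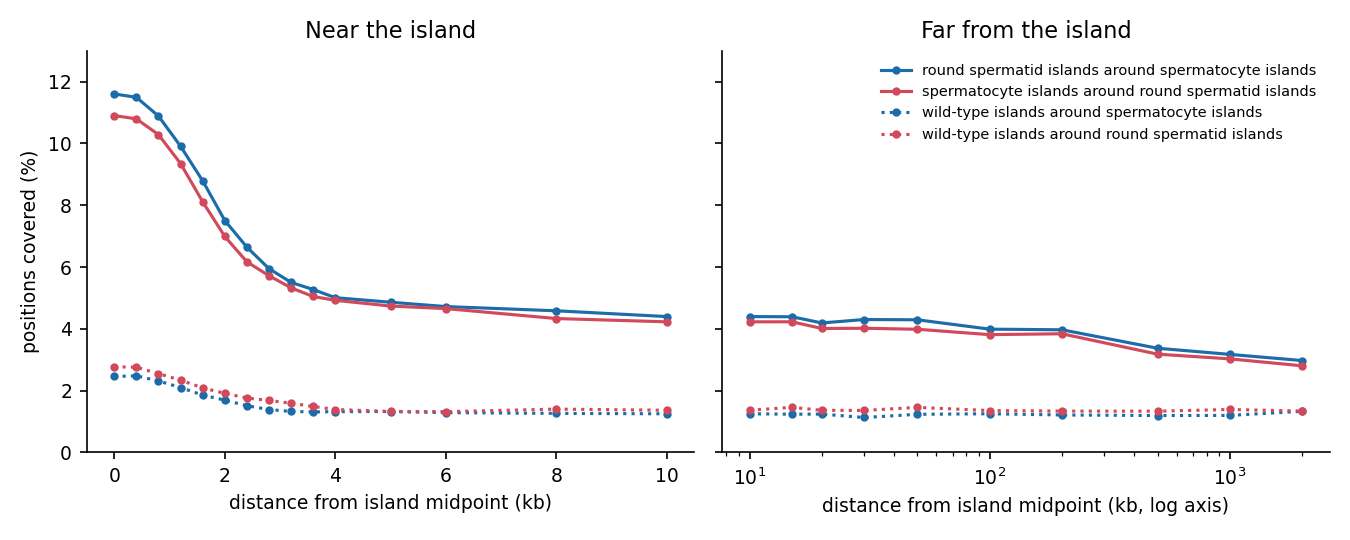
Share of positions covered by islands of another list, against the distance from the midpoint of an island, near (left, linear axis) and far (right, log axis). Solid lines give the other stage and dotted lines the wild-type list; the solid lines drop from 11.6% and 10.9% to near 5% within 4 kb and then decline slowly, while the dotted lines are level beyond 4 kb.

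Overlapping pairs seldom had the same borders. The median pair had 2400 bp in common (quartiles 1400 and 3200), which was 66.7% of its spermatocyte island and 71.4% of its round spermatid island. Starts and ends each differed by a median of 1200 bp, or 6 windows. Only 50 pairs (1.98%) had the same start and the same end. In 1379 pairs (54.7%) the islands were staggered, in 571 the round spermatid island lay inside the spermatocyte island, and in 519 the reverse held. At least 50% of each partner was common in 1358 pairs.

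Within a pair, the measured folds of the 2 stages were only weakly correlated. The median island held 103 ChIP and 79 control reads in spermatocytes, and 116 and 83 in round spermatids. Counting error therefore enters each fold and lowers such a correlation, by an amount that was not tested. The deposited fold over control of the 2 partners had a Pearson r of 0.10 on the log2 scale and a Spearman rho of 0.13 over 2519 pairs. Both folds were at or above the median of their list in 547 pairs (21.7%), and no reference share for unrelated folds was computed. Shared islands had lower median folds (1.48 in spermatocytes and 1.44 in round spermatids) than their lists (1.51 and 1.47), which itself lowers this count. Input density, the control reads per kb of island, was more alike, with an r of 0.86 and a rho of 0.38. Leaving out pairs with more than 2 times the median input density in either list, the r for input density was 0.38, for ChIP reads per kb 0.24 and for fold 0.07 over 2448 pairs. These correlations describe pairs that had already passed the caller in both lists. The partners share their stretch of genome, and hence its mappability and base composition.

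The pairs with the most bases in common were long islands of low fold and dense input. The first was chr9:2999801-3038600, at the start of the assembled part of chromosome 9, called with identical borders at both stages. It held 229021 ChIP and 189858 input reads in spermatocytes (fold 1.41) and 233148 and 204593 in round spermatids (fold 1.21). Its input density of 4893 and 5273 reads per kb stands against medians of 22.5 and 25 over the lists. The next was chr3:92021801-92035000, the common part of islands of 13400 bp in spermatocytes and 20800 bp in round spermatids, with folds of 1.27 and 1.16. It was followed by chr10:57154401-57165800 with folds of 1.19 and 1.12, chr13:12978601-12989200 with 1.28 and 1.11, and chr18:3003601-3013600 with 1.13 and 1.18. All 5 had more than 2 times the median input density in both lists.

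Few pairs had a fold of at least 2 at both stages. With both lists restricted to such islands, 9 of 1361 spermatocyte and 9 of 1085 round spermatid islands were shared (0.661% and 0.829%). These lists are far smaller than the whole lists, which alone changes the share. The pair with the highest lower fold, among those with at least 50 ChIP reads at both stages, was chr3:138730601-138732400. It had a fold of 2.21 in spermatocytes (119 ChIP and 63 input reads) and 2.83 in round spermatids (80 and 30 reads). At chr11:22229601-22232400 the folds were 2.14 and 2.27. The pair chr16:69272601-69275000 had identical borders, with folds of 2.22 and 2.12 from 74 and 78 ChIP reads beside 39 input reads each. At chr4:36287801-36289400 the folds were 2.08 and 2.09. At chr11:42051401-42051600 islands of fold 2.31 and 2.07 met in a single window. Their input densities were 15.4 to 18.3 reads per kb in spermatocytes, all below the median of 22.5, and 16.3 to 26.9 in round spermatids, below the median of 25 in 4 of the 5. The fold divides by control reads, so a choice by fold itself favours low input density. The 5 spermatocyte islands were 2400 to 5600 bp long and the 5 round spermatid islands 1600 to 2800 bp.

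Shared islands were slightly longer than islands of 1 list only. In spermatocytes the median length was 3800 bp (quartiles 2800 and 5000) for shared and 3600 bp (2800 and 4600) for one-list islands. In round spermatids it was 3600 bp (2800 and 4800) and 3400 bp (2600 and 4400). The medians differ by 1 window of 200 bp, far less than the spread among islands of a class. A long island has more bases that could meet another, and the share of islands shared was 15.5% up to 2000 bp and 24.0% over 6000 bp in spermatocytes, and 12.1% and 22.2% in round spermatids. Counted by bases this dependence was absent: 10.3% to 12.5% of spermatocyte bases and 9.68% to 10.8% of round spermatid bases lay in the other list over the 5 length bins.

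The medians of ChIP density were close in the 2 classes, while the share differed along its range. Shared islands held a median of 29.8 ChIP reads per kb in spermatocytes, beside 29.3 in one-list islands (ratio 1.02, 1.004 to 1.03). In round spermatids the medians were 35.4 and 35.3 (ratio 1.001, 0.988 to 1.01). Short islands are denser in reads, and within the 5 length bins the ratio was 1.02 to 1.05 in spermatocytes and 1.02 to 1.04 in round spermatids. Over 10 groups by ChIP density, 12.3% (10.7 to 14.1) of spermatocyte islands were shared in the lowest and 19.9% (17.9 to 22.05) in the highest group. By bases in the other list these groups had 5.90% and 19.9%. In round spermatids the share was 12.3% (10.8 to 14.03) and 15.6% (13.9 to 17.4), and by bases 6.72% and 13.9%.

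The median fold was lower in shared islands, at 1.48 against 1.52 in spermatocytes and 1.44 against 1.47 in round spermatids. The 5th and 95th percentiles in spermatocytes were 1.26 and 2.05 in shared and 1.29 and 2.20 in one-list islands. Over 10 groups by fold, the share of shared islands was 25.4% (23.2 to 27.7) in the lowest and 12.2% (10.6 to 13.9) in the highest group of spermatocyte islands, and 20.6% (18.7 to 22.6) and 11.4% (9.94 to 13.1) in round spermatids. Islands of low fold were also longer, with a median of 5200 bp in the lowest group of both lists, beside 2400 and 2200 bp in the highest. By bases in the other list the lowest and highest groups had 15.3% and 8.34% in spermatocytes, and 11.6% and 9.04% in round spermatids.

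The medians of input density differed a little more than those of ChIP density. The median was 23.3 reads per kb in shared and 22.4 in one-list spermatocyte islands (ratio 1.04, 1.03 to 1.06), and 25.7 and 25 in round spermatids (1.03, 1.02 to 1.04). When each list was divided into 10 groups of nearly equal size by input density, the share of shared islands was 10.9% (9.36 to 12.6) in the lowest and 24.5% (22.3 to 26.7) in the highest group of spermatocyte islands. In round spermatids it was 11.6% (10.04 to 13.2) and 18.4% (16.5 to 20.3). The order held within length: among spermatocyte islands of 4000 to 6000 bp the share was 12.6%, 19.5% and 24.8% in the lower, middle and upper of 3 classes of input density, and in round spermatids 14.4%, 17.9% and 21.8%. Among islands of up to 2000 bp it was 7.63%, 13.4% and 17.7% in spermatocytes, but 9.29%, 8.93% and 13.7% in round spermatids. Input density was not measured apart from calling, since the control reads enter the call, and its part in the overlap was not tested.

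The few islands of extreme input density were mostly shared. At more than 5 times the median, 27 of 42 spermatocyte islands (64.3%, 48.0 to 78.4) and 29 of 44 round spermatid islands (65.9%, 50.1 to 79.5) overlapped the other list. These held 17.0% and 15.7% of all ChIP reads in autosomal islands, most of them in the chromosome 9 island above. Between 2 and 5 times the median the shares were 30.1% (31 of 103) and 17.1% (31 of 181). Because such islands are few, restricting both lists to at most 2 times the median left the overall shares at 16.2% and 14.9%.

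Counted by number, the most firmly called islands were not the most often shared. Over 10 groups by the deposited p-value, each matched against the whole of the other list, 14.6% (12.8 to 16.5) of spermatocyte islands were shared in the group of lowest p-value and 18.3% (16.4 to 20.4) in that of highest p-value. In round spermatids the same groups had 15.3% (13.6 to 17.1) and 16.5% (14.8 to 18.4), with 13.5% to 15.9% in between. Some of the islands of lowest p-value had no counterpart at the other stage. In spermatocytes the 3 lowest of this kind were chr16:88619401-88621800 with a fold of 4.10, chr16:88907401-88908600 with 6.15 and chr16:27524601-27528400 with 3.09. They lay 19.4, 2 and 1 kb from the nearest round spermatid island. In round spermatids the 3 were chr10:56895801-56897000 with a fold of 8.01, at 16.8 kb from a spermatocyte island, and 2 islands of dense input, chr11:3025801-3100400 and chr10:7228201-7239400, with folds of 1.07 and 1.20.

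**Figure D2:**
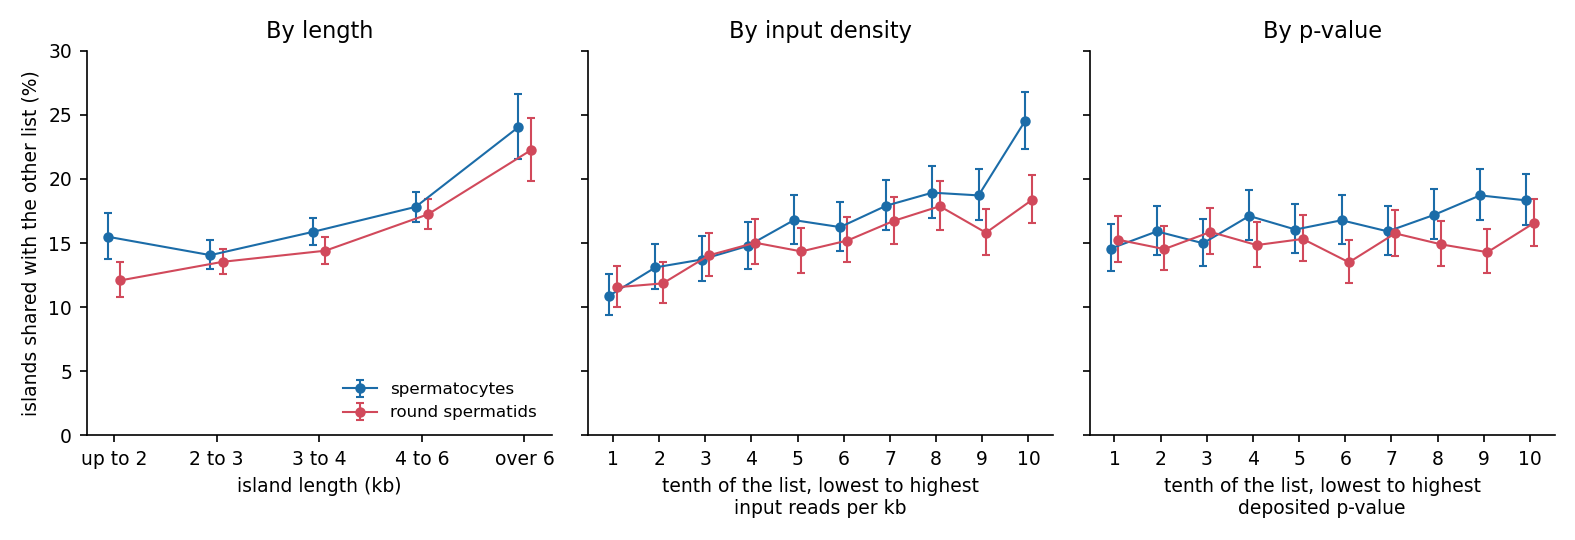
Percentage of islands shared with the other list, by island length, and by 10 groups of input density and of the deposited p-value, with exact 95% intervals of counting error, for spermatocytes (blue) and round spermatids (red). The share is higher in long islands (24.0% and 22.2% over 6 kb) and at high input density, and differs less across p-values (14.6% to 18.7% and 13.5% to 16.5%).

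Spermatocyte islands of 1 list only lay about as near to the other stage as to their own list, and those of round spermatids lay nearer to their own. From a one-list spermatocyte island to the nearest round spermatid island the median gap was 31.4 kb (quartiles 11.8 and 73.8), beside 31.6 kb (11.8 and 71.0) to the nearest spermatocyte island and 87.8 kb to the nearest wild-type island. From a one-list round spermatid island it was 33.8 kb (12.8 and 77.6) to a spermatocyte island, beside 27.8 kb (10.8 and 62.4) to its own list and 76.8 kb to a wild-type island. The lists differ in number, which alone changes such gaps. The 3 gaps are also cut by different rules. One-list islands leave out overlaps with the other stage by definition, own-list gaps start at 800 bp, and wild-type overlaps count as 0. Close misses were rare. Within 1 kb of the other list lay 2.51% of one-list spermatocyte islands and 2.29% of one-list round spermatid islands, within 10 kb 22.0% and 20.5%, and within 100 kb 82.4% and 80.9%. Counting near islands within 10 kb as shared would bring the shares to 34.9% and 32.4%.

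**Figure D3:**
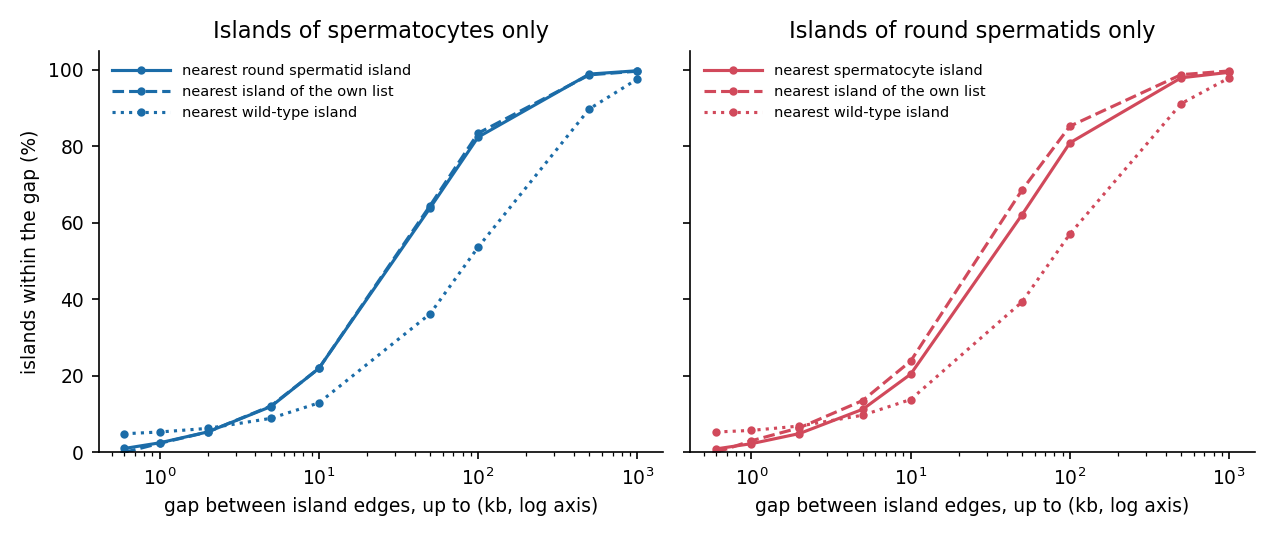
Cumulative percentage of one-list islands by the gap to the nearest island of the other stage (solid), of their own list (dashed) and of the wild-type list (dotted, overlaps counted as a gap of 0), on a log axis in kb. In spermatocytes the solid and dashed curves run together, and in round spermatids the dashed curve is higher (68.6% against 62.1% within 50 kb).

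A small number of islands stood far from the other stage. More than 1 Mb away lay 28 one-list spermatocyte islands (0.224%) and 89 one-list round spermatid islands (0.637%). With at least 100 ChIP reads, the farthest in spermatocytes were chr11:103328801-103333400 at 2232 kb (fold 1.70), chr8:126967001-126970200 at 2089 kb (1.92) and chr11:85974201-85979000 at 2035 kb (1.41). The first of these was 3395 kb from the next island of its own list but 27 kb from a wild-type island. In round spermatids all 3 were on distal chromosome 4, chr4:151663001-151664000 at 4605 kb (fold 1.49), chr4:126335601-126339600 at 3953 kb (1.39) and chr4:127143201-127146800 at 3684 kb (1.47). The last 2 were 26 and 18.4 kb from wild-type islands, and chr4:151663001-151664000 was 339 kb from one. That island was 1000 bp long and of dense input, with 109 input reads per kb beside a median of 25 over the list. No genome annotation of the build of the files was used here, so genes at these places are not named.

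Across the genome the numbers of islands per window went together between the stages. Of 2425 windows of 1 Mb, 1996 held islands of both lists, 82 of spermatocytes only, 167 of round spermatids only and 180 none. The counts per window had a Pearson r of 0.72 and a Spearman rho of 0.77 between the stages. Against the wild-type list the r was -0.32 in spermatocytes and -0.21 in round spermatids. Windows of a library share its depth and neighbouring windows are not independent, so these values are descriptions. Both lists also share the mappability and base composition of each window, and the part of these was not tested. More windows had an excess of round spermatid islands (1171) than of spermatocyte islands (810), in lists whose means were 6.78 and 6.17 per window.

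Sharing was unevenly spread, and the share was higher in windows that held more islands. A shared island was found in 1253 of the 2245 windows with any island (55.8%). In 743 windows both stages had islands and none overlapped. The median window with an island had 10% of its islands shared (quartiles 0 and 22.2), and among the 1387 windows with at least 10 islands the median was 15.4% (8.33 and 23.5), with a highest value of 63.6%. In windows of 1 to 5 islands 7.80% of spermatocyte islands (5.81 to 10.2) and 5.87% of round spermatid islands (4.36 to 7.71) were shared. In windows of 31 to 55 islands the shares were 22.1% (20.4 to 24.0) and 20.8% (19.1 to 22.6). Coverage by the other list also differed, from 0.531% to 6.83% for round spermatids and from 0.420% to 6.84% for spermatocytes. The share counts islands with at least 1 bp in common and the coverage counts bases, so their ranges are not like measures. The classes were formed by the islands of both lists, so a rise of both is partly built in. In the sparsest class, 92 windows held a single round spermatid island and 52 a single spermatocyte island, with no partner inside the window. Windows dense in tagged islands held fewer wild-type islands, with a mean of 7.11 in the sparsest and 4.18 in the densest class.

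**Figure D4:**
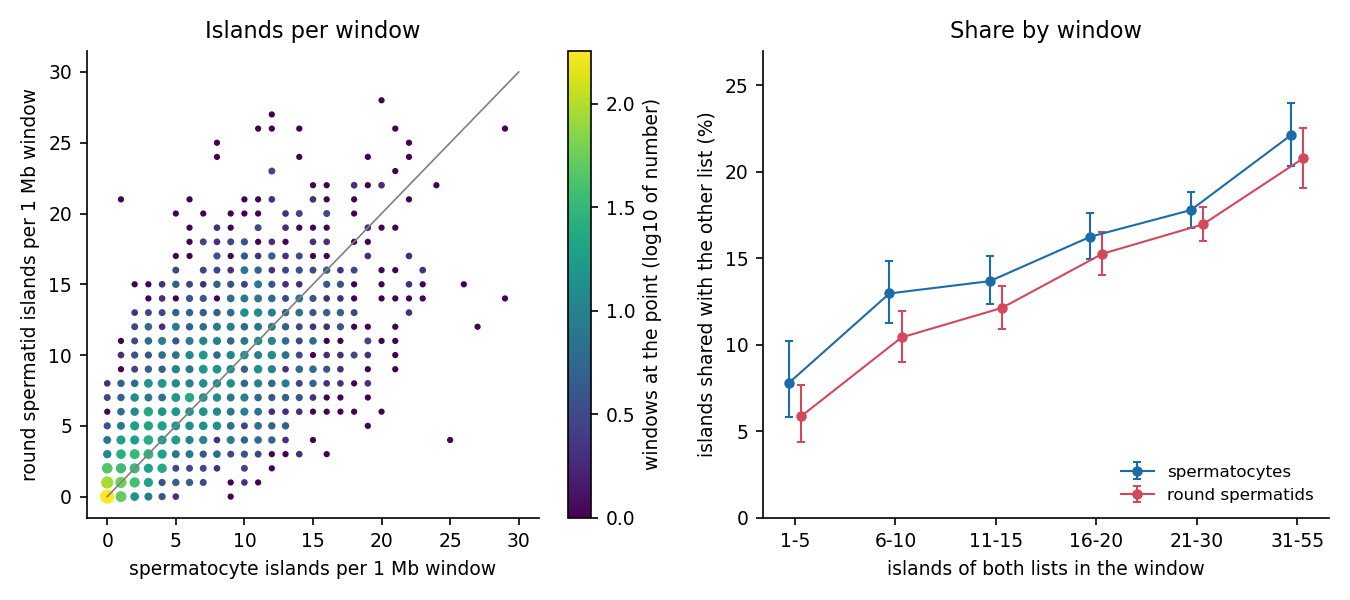
Left, spermatocyte against round spermatid islands in 2425 windows of 1 Mb, where size and colour give the number of windows at a point and the grey line marks equal numbers; right, percentage of islands shared by the number of islands of both lists in the window, with exact 95% intervals. Counts go together (r of 0.72) with wide scatter, and shares run from 7.80% and 5.87% to 22.1% and 20.8%.

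The windows with most shared islands were chr3:29000001-30000000, chr3:92000001-93000000 and chr9:28000001-29000000, with 8 in each list. The first held 14 spermatocyte and 20 round spermatid islands and 2 wild-type islands. The chromosome 9 window held 14 and 24, and was also rich in wild-type islands, with 15. Next came chr2:159000001-160000000 and chr3:81000001-82000000 with 7 shared islands in each list. The largest excess of round spermatid islands was at chr7:32000001-33000000, with 21 beside 1 spermatocyte island, which was shared. It was followed by chr1:81000001-82000000 with 25 beside 8 and chr7:10000001-11000000 with 24 beside 8. In the other direction chr6:15000001-16000000 had 25 spermatocyte and 4 round spermatid islands, and all 4 overlapped spermatocyte islands. The next were chr6:103000001-104000000 with 27 beside 12 and chr2:43000001-44000000 with 29 beside 14. These are the extremes of 2425 windows.

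Every autosome had both classes. The highest and lowest shares given here were picked as the extremes of 19 autosomes. Their intervals hold counting error only, so a difference between autosomes was not tested. Among spermatocyte islands the share ran from 14.8% (12.4 to 17.4) on chromosome 10 to 19.8% (17.8 to 21.8) on chromosome 1. Among round spermatid islands it ran from 11.2% (9.08 to 13.5) on chromosome 7 to 17.8% (14.8 to 21.01) on chromosome 15. Chromosome 7 had 1.46 times as many islands in round spermatids (825) as in spermatocytes (567), the highest ratio of the autosomes, so 94 shared spermatocyte islands were 16.6% of one list while 92 round spermatid islands were 11.2% of the other. Chromosome 1 was the most densely covered at both stages, with 3.24% and 3.92%, and had the shortest median gap from one-list spermatocyte islands to the other stage, at 21.4 kb.

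**Figure D5:**
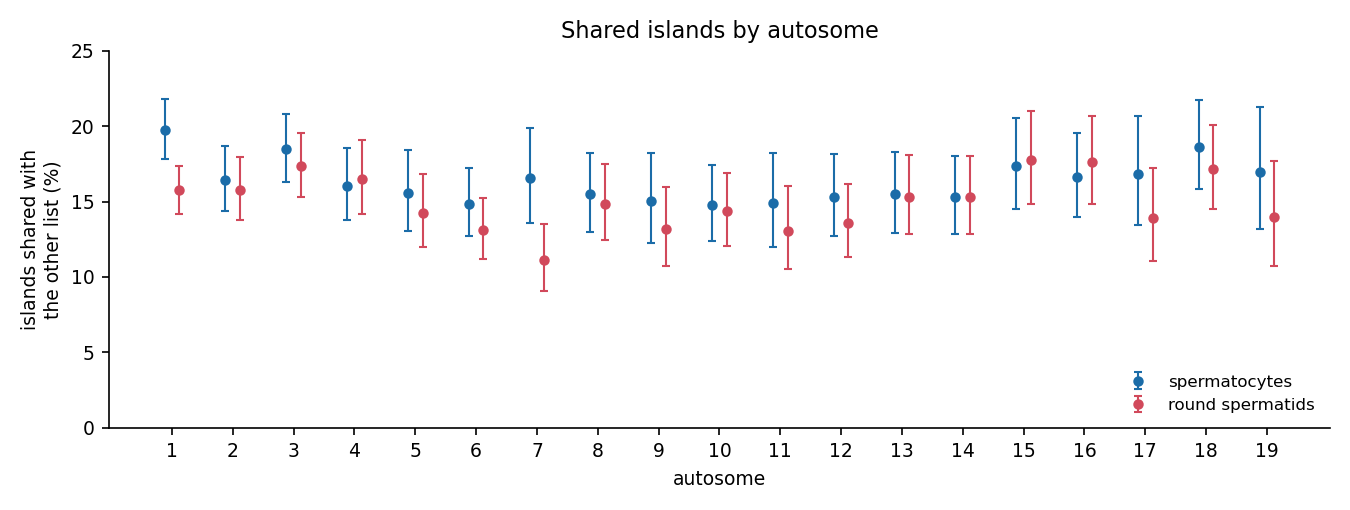
Percentage of islands shared with the other list on each autosome, with exact 95% intervals of counting error, for spermatocytes (blue) and round spermatids (red). Most intervals overlap; the highest point is chromosome 1 in spermatocytes (19.8%) and the lowest chromosome 7 in round spermatids (11.2%).

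Few islands of either class met the wild-type list, with a slightly higher share among shared islands. A wild-type island overlapped 132 of the 2476 shared spermatocyte islands (5.33%, 4.48 to 6.29) and 541 of the 12480 one-list islands (4.33%, 3.98 to 4.71). In round spermatids the values were 137 of 2480 (5.52%, 4.66 to 6.50) and 671 of 13967 (4.80%, 4.46 to 5.17). The intervals of both classes overlap in each cell type, but they hold counting error only and are no test of a difference. Shared islands were also longer, with medians of 3800 against 3600 bp in spermatocytes and 3600 against 3400 bp in round spermatids. A longer island has more bases that could meet a wild-type island. Antibody, genotype and cells all differ between the tagged and the wild-type lists.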

How the data were processed

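The authors deposited 1 island list per ChIP library, called with SICER on mm9 per the submitters' processing notes; window (200 bp) and gap (600 bp) were read from list names. The aligner is not given in the sources used here. Per the values, the authors' columns hold whole-number counts of ChIP and control reads, a p-value and FDR (at most 0.01), and a fold, the ratio of the counts times 1 constant per list. The control was taken as the input of the same cells. Both tagged input titles end in an unexplained 2. An end is the last base of its island in both tagged lists, while wild-type ends lie 1 base further. Positions are printed counted from 1.

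Gaps run edge to edge, and windows take islands by midpoint from 3 Mb to each chromosome end (mm9 lengths from GenomeInfoDb 1.38.1). Shares have exact Clopper-Pearson intervals, medians order-statistic intervals. Intervals of ratios were formed from opposite ends of the intervals of both medians. Counting was checked on simulated lists. Python 3.11.15, numpy 2.4.6, pandas 2.3.3, scipy 1.17.1 and matplotlib 3.10.9 were used. Named regions followed rules on size: the 5 pairs with most bases in common, the 5 with the highest lower fold, the 3 farthest islands and the 3 of lowest p-value per list, and the extreme windows and autosomes. Islands, classes and rules were chosen with earlier results of these data known. No sequence was printed, since no mm9 genome was used here.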

Additional observations from a re-analysis of the deposited data

How the results depend on the processing

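Across 64 alternatives, 31 values stayed inside the interval of the main value (within 0.05 for the correlation), 33 moved, and no ratio whose interval excluded 1 crossed it. The round spermatid ratio of ChIP reads per kb, 1.001 with an interval that includes 1, was 0.992 at an FDR of at most 0.0001 and 0.998 at input densities of up to 2 times the median. The cause was not tested. Shares of spermatocyte and round spermatid islands were 9.08% and 8.26% with 50% reciprocal overlap, 17.4% and 15.9% with gaps up to 600 bp counted, 8.22% and 7.62% at an FDR of at most 0.0001 and 0.661% and 0.829% at a fold of at least 2, where 9 islands of each list were shared. With equal numbers of islands the spermatocyte share was 14.9%, and with at least 100 ChIP reads the round spermatid share was 11.5%. The length ratio of shared to one-list islands was 1.06 at the stricter FDR in spermatocytes, and 1.05 in both cell types with at least 100 reads (1.045 and 1.050). The ratio of ChIP reads per kb in spermatocytes was 1.032 with reciprocal overlap, 1.028 with at least 100 reads and 1.033 within length bins. Round spermatids had 1.027 with at least 100 reads and 1.028 within length bins. The ratio of input reads per kb was 1.063 with reciprocal overlap in spermatocytes, and 1.021 at the stricter FDR and 1.051 with at least 100 reads in round spermatids. Median gaps of spermatocyte and round spermatid islands were 67.4 and 72.0 kb at the stricter FDR and 35.4 and 37.6 kb between midpoints, and 34.8 kb in spermatocytes with equal numbers. The window correlation was 0.64 at 500 kb, 0.78 at 2 Mb and 0.55 at the stricter FDR. The median share per window was 0% at 500 kb, 13.3% at 2 Mb, 0% at the stricter FDR and 15.4% in windows of at least 10 islands. That last setting, windows with at least 1 island and the values without chromosome 1 were chosen after seeing the data. Depth is known only inside islands.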

Other observations

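Gaps between the lists were unevenly spread at short range. Of the one-list spermatocyte islands, 129 had a gap of 0 to 600 bp to the nearest round spermatid island, 358 a gap of 800 to 1400 bp and 253 a gap of 1600 to 2200 bp, and the counts in the next steps of the same width were 192 to 243. Of the one-list round spermatid islands 129, 362 and 274 lay in the first 3 steps. Spermatocyte islands that overlapped no wild-type island had gaps of the same form to the nearest one, with 83, 135 and 101. The wild-type list comes from other mice and another antibody. Within a list no gap was under 800 bp, since the caller joins windows up to 600 bp apart, and 605 spermatocyte and 811 round spermatid islands had a neighbour of their own list at 800 to 1400 bp, beside 299 and 341 at 1600 to 2200 bp.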
